A study of Homo sapiens with 4 samples.

Results

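DNA methyltransferases, UHRF1 and TET enzymes set and remove methyl groups on cytosines of the genome, and the 8 genes DNMT1, UHRF1, DNMT3A, DNMT3B, DNMT3L, TET1, TET2 and TET3 are described here in human embryonic stem cells at day 2 of hematopoietic differentiation. They were chosen by gene symbol, with earlier results of these data known. All 8 had 1 row each among the 56595 gene symbols of the expression table, and 7 of them were among the 14010 genes with a mean of at least 1 FPKM that entered the test. FPKM counts sequenced fragments relative to transcript length and to library size, so levels of different genes can be compared on it.

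The H1 line is a widely used line of human embryonic stem cells. All 4 samples were H1 cells kept for 2 days in a custom mTeSR1 medium with activinA and BMP4, the growth factors that start mesoderm formation. The labels give activinA at 40 ng/ml and BMP4 at 50 ng/ml. The paper states these doses the other way round, BMP4 at 40 ng/ml and activin A at 50 ng/ml. The DMSO group (n = 2) received the solvent and the IWP2 group (n = 2) received IWP2, a small molecule that blocks Porcupine, the enzyme that Wnt proteins need for their secretion. Bulk RNA of a single line was sequenced, no undifferentiated sample was analysed here, and nothing in the labels says that the samples of a group came from separate experiments, so p-values measure only the spread between these samples. The comparison asks how these genes differed at day 2 between cells with IWP2 and cells with the solvent.

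DNMT3A and DNMT3B place methyl groups on DNA that carries none, and DNMT3L is a partner without its own activity that stimulates them. DNMT1 copies the pattern onto the new strand after replication, and UHRF1 recognises the hemimethylated sites and brings DNMT1 to them. TET1, TET2 and TET3 oxidise methylcytosine and so start its removal. DNMT3B and TET1 are known for high expression in primed human pluripotent stem cells.

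The coding sequence of the catalytic center shows how the families differ. In the methyltransferases a proline and a cysteine, whose codons are in capitals, form the loop that attacks the cytosine. The stretches were read from GENCODE 29 transcripts (GRCh38) and lie in coding exons at chr19:10140111-10140140 (minus strand) for DNMT1, chr2:25240668-25240697 (minus strand) for DNMT3A and chr20:32800868-32800897 (plus strand) for DNMT3B.
DNMT1: ggcgggccgCCCTGCcagggcttcagcggc
DNMT3A: gggggcagtCCCTGCaatgacctctccatc
DNMT3B: ggcggaagcCCATGCaacgatctctcaaat

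DNMT3L had no counterpart to this cysteine, since its aligned protein had a gap right after the proline. Over their aligned stretches, the DNMT3A and DNMT3B proteins were 61.3% identical (652 residues) and DNMT3B and DNMT3L 43.4% identical (295 residues).

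The TET enzymes share an iron-binding motif instead, with a histidine and an aspartate whose codons are in capitals. It lies in coding exons on the plus strand at chr10:68682929-68682958 for TET1, chr4:105269703-105269732 for TET2 and chr2:74093622-74093651 for TET3.
TET1: catcccCACaggGACattcacaacatgaat
TET2: catgccCACagaGACttgcacaacatgcag
TET3: cacgccCACaagGACcagcataacctctac

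Despite the protein likeness, reads of the catalytically active members can be told apart. No 50-base window of the annotated DNMT3B, TET1, TET2 or TET3 transcripts occurred in a transcript of another gene, and for DNMT3A and DNMT1 0.0244% and 1.01% did. For UHRF1 21.1% of the windows were shared. Of these 1095 windows, 1072 occurred in AC112777.1, which was listed at 0.112 to 0.254 FPKM, and 17 in LLGL1, at 25.9 to 29.5 FPKM. Another 4 occurred in SEPT9, at 126 to 182 FPKM, and 2 in MMAB, at 23.6 to 25.1 FPKM. For DNMT3L 24.4% were shared with FP565260.4, which was listed at 0 in all 4 samples. How the authors placed reads that fit several genes is not given in the sources used here, so UHRF1 and DNMT3L are less certain than the others.

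The table measured each gene as a whole. DNMT3B at chr20:32762385-32809356 has 6 annotated transcripts, DNMT3A at chr2:25227855-25342590 has 15, and DNMT1 at chr19:10133345-10231286 has 28. UHRF1 lies at chr19:4903080-4962154, DNMT3L at chr21:44246339-44262216, TET1 at chr10:68560656-68694482, TET2 at chr4:105145875-105279816 and TET3 at chr2:73986404-74108176. Which isoforms were used was not measured. The DNMT1 gene model overlaps S1PR2, a receptor gene on the same strand, which stood at 2.98 to 3.37 FPKM. COX20P1 inside TET1 stood at 0.393 to 1.20 FPKM. TET2-AS1, the antisense gene of TET2, was listed at 0 in all 4 samples. AP001059.1, antisense to DNMT3L, was listed at 0 in 3 samples and at 1.09 FPKM in IWP2 replicate 2, where DNMT3L stood at 0.386 FPKM. Whether strand was used in counting is not given in the sources used here, so reads of a gene and its antisense partner cannot be told apart.

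Over all genes tested, 2133 of 14010 (15.2%) had an adjusted p under 0.05 in limma with Benjamini-Hochberg adjustment. Of the genes tested, 6.77% were called higher and 8.45% lower with IWP2, and the median log2 difference was -0.02. The groups did not overlap, with IWP2 higher, in 27.9% of genes, and with IWP2 lower in 31.9%. Replicates correlated at 0.973 (DMSO) and 0.980 (IWP2) across genes on the log2 scale, against 0.927 to 0.938 between groups. With 2 against 2 samples an exact permutation test of a single gene cannot go below p = 0.333 (two-sided).

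Against this background 1 of the 7 members tested was called, DNMT3B, which was higher with IWP2. None was called lower. DNMT3A lay above DMSO in both IWP2 samples and the 3 TET genes lay below DMSO in both, without passing the test. DNMT1 and UHRF1 overlapped between the groups.

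**Figure D1:**
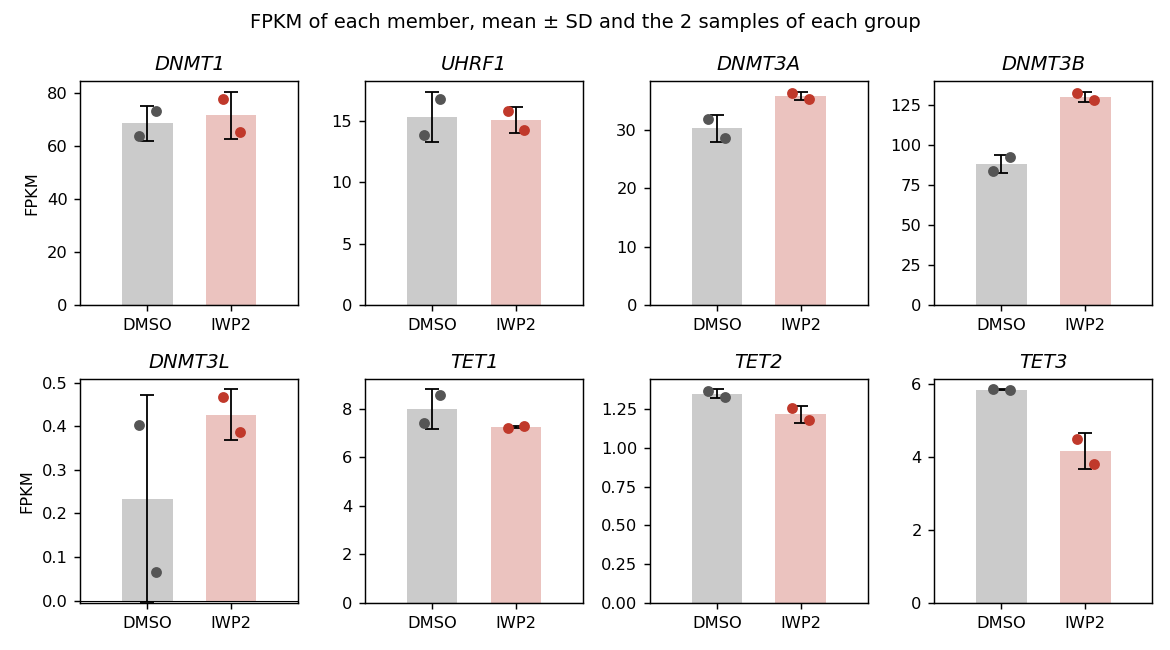
FPKM (vertical axes, each from its own 0) of the 8 members in the DMSO and IWP2 groups, with dots for the 2 samples of a group, bars for the mean and error bars for the SD. DNMT3B stood at 127.8 and 132.3 with IWP2 against 83.9 and 92.2 with DMSO, TET3 at 3.80 and 4.50 against 5.84 and 5.85, and DNMT1 and UHRF1 overlapped.

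The order of the levels was the same with and without IWP2. Averaged over the 4 samples, DNMT3B had 109.1 FPKM, DNMT1 69.9, DNMT3A 33.0, UHRF1 15.2, TET1 7.61, TET3 5.0, TET2 1.29 and DNMT3L 0.330. No neighbours in this order overlapped in their range over the 4 samples. DNMT3B stood at the percentile 94.4 of the mean level of the genes tested and TET2 at the percentile 4.71.

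DNMT3B, the de novo enzyme that dominated the family, measured 83.9 and 92.2 FPKM in the DMSO samples and 132.3 and 127.8 FPKM in the IWP2 samples. Both IWP2 samples were above both DMSO samples, by more than the spread within either group. The mean rose from 88.1 ± 5.83 to 130.1 ± 3.16 FPKM (SD, n = 2 each), which is 1.48-fold. On the log2(FPKM + 1) scale the difference was 0.56 (SE 0.0863, 95% interval 0.34 to 0.78), with an adjusted p of 0.0147 in limma. The call did not survive the loss of some samples, although the difference stayed between 0.49 and 0.63 when any sample was left out. The adjusted p was 0.0576 without DMSO replicate 1, 0.128 without IWP2 replicate 1, 0.113 without IWP2 replicate 2 and 0.0739 when genes of low level were kept in the test.

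DNMT3A, the other active de novo enzyme, measured 31.9 and 28.6 FPKM with DMSO and 36.3 and 35.3 FPKM with IWP2. Its groups did not overlap, yet its fold of 1.18 was smaller than that of DNMT3B. The log2 difference of 0.24 (SE 0.0949, 95% interval 0.00 to 0.48) did not pass the test (adjusted p = 0.171, limma).

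DNMT3L, the inactive partner, was near the floor of the table. It measured 0.402 and 0.0661 FPKM with DMSO and 0.468 and 0.386 FPKM with IWP2, so the groups overlapped. It was below the mean of 1 FPKM set for the test, and when all genes were kept its log2 difference was 0.22 with an adjusted p of 0.570 in limma.

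DNMT1, the maintenance enzyme, measured 63.8 and 73.0 FPKM with DMSO and 77.7 and 65.2 FPKM with IWP2. The groups overlapped, and the log2 difference of 0.06 (SE 0.124, adjusted p = 0.792, limma) had a 95% interval from -0.25 to 0.37. UHRF1, which guides DNMT1 to replicated DNA, measured 13.9 and 16.8 FPKM with DMSO and 15.8 and 14.3 FPKM with IWP2. Its log2 difference was -0.02 (SE 0.129, adjusted p = 0.939, limma), with a 95% interval from -0.35 to 0.31. For both genes a change of the size seen for DNMT3B lay outside the interval. The direction of both turned when single samples were left out, so no direction was read from them.

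TET3 had the lowest log2 difference of the members. It measured 5.85 and 5.84 FPKM with DMSO and 4.50 and 3.80 FPKM with IWP2. Both IWP2 samples were lower, and the mean of 4.15 FPKM was 0.710 times the mean of 5.85 FPKM with DMSO. The log2 difference of -0.41 (SE 0.135, 95% interval -0.76 to -0.07) had an unadjusted p of 0.0266 and an adjusted p of 0.110 in limma, so it was not called.

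TET1, the main TET gene of pluripotent stem cells, measured 7.39 and 8.55 FPKM with DMSO and 7.22 and 7.28 FPKM with IWP2. The IWP2 samples lay just below the lower DMSO sample, with a log2 difference of -0.12 (SE 0.123, adjusted p = 0.576, limma; 95% interval -0.43 to 0.19). TET2, known best from blood cells, measured 1.37 and 1.33 FPKM with DMSO and 1.26 and 1.18 FPKM with IWP2. Its log2 difference of -0.08 (SE 0.177, adjusted p = 0.798, limma) had a wide 95% interval from -0.53 to 0.36. A change of the size of that of TET3 lay within this interval.

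**Figure D2:**
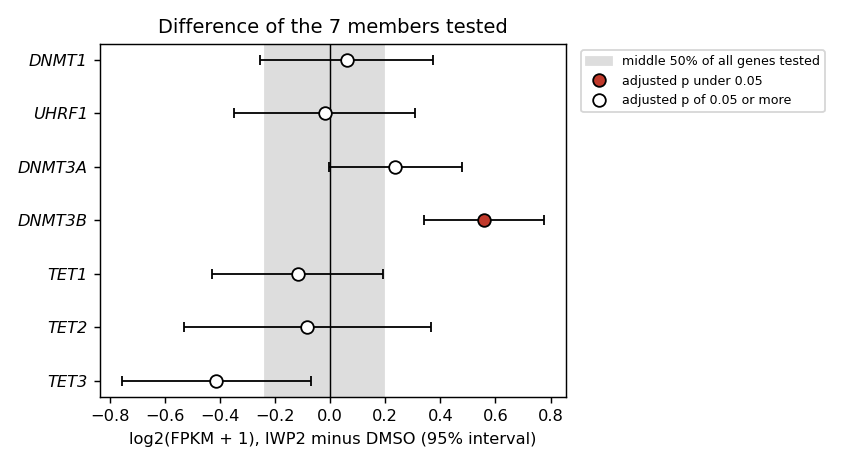
Difference of log2(FPKM + 1), IWP2 minus DMSO (horizontal axis), for the 7 members tested, with 95% intervals from limma, where a filled dot marks an adjusted p under 0.05 and the gray band holds the middle 50% of all genes tested. DNMT3B at 0.56 is the filled dot, TET3 at -0.41 and DNMT3A at 0.24 also lie outside the band, and the others lie inside it.

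Ratios of members within a sample do not depend on the scaling between samples. DNMT3B over DNMT3A was 2.63 and 3.22 with DMSO and 3.65 and 3.62 with IWP2. The groups did not overlap, but the DMSO samples differed from each other by more than DMSO replicate 2 differed from the IWP2 samples. DNMT3B made up 74.2 ± 2.86% of the summed FPKM of the DNMT3 family with DMSO and 78.2 ± 0.0636% with IWP2 (SD, n = 2 each). The difference of 3.99 percentage points rested on the DMSO samples, since it was 1.97 without DMSO replicate 1 and 6.01 without DMSO replicate 2.

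DNMT3B over DNMT1, the de novo against the maintenance enzyme, was 1.32 and 1.26 with DMSO and 1.70 and 1.96 with IWP2. Here the gap between the groups was larger than the spread within each. UHRF1 over DNMT1 was 0.217 and 0.230 with DMSO and 0.203 and 0.219 with IWP2. This pair kept nearly the same proportion in all 4 samples, and the sample that was low in DNMT1 within a group was also low in UHRF1. With 2 samples per group this is only a description, and 21.1% of the UHRF1 windows were shared with other genes.

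Among the TET genes, TET1 over TET3 was 1.26 and 1.46 with DMSO and 1.60 and 1.92 with IWP2, so the IWP2 samples lay above. TET1 made up 52.5 ± 2.68% of the summed TET level with DMSO and 57.5 ± 2.66% with IWP2, while TET3 made up 38.6 ± 2.03% and 32.9 ± 2.61%. The nearest samples of the groups were close, with a TET1 share of 54.4% in DMSO replicate 2 and 55.6% in IWP2 replicate 1. TET1 over TET2, at 5.39 and 6.42 against 5.74 and 6.17, overlapped.

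The DNMT3 family sum was 116.2 and 120.9 FPKM with DMSO and 169.1 and 163.5 FPKM with IWP2, and the TET sum was 14.6 and 15.7 FPKM against 13.0 and 12.3 FPKM. The DNMT3 sum over the TET sum was therefore 7.96 and 7.69 with DMSO and 13.0 and 13.3 with IWP2. Of the ratios computed this one had the widest gap between the groups relative to the spread within them. It was singled out after the values were seen, and DNMT3B alone made up 72.2% to 78.3% of the DNMT3 sum. The ratios and shares are given as values, and their differences between the groups were not tested.

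**Figure D3:**
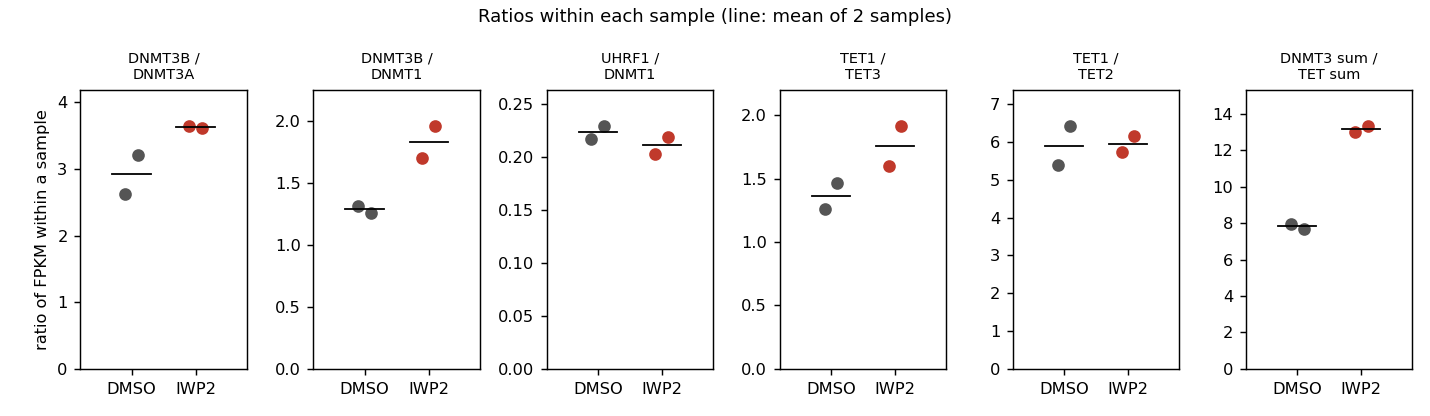
Ratios of FPKM within a sample (vertical axes from 0) in the DMSO and IWP2 groups, with dots for samples and a line for the mean of 2. DNMT3B over DNMT1 and the DNMT3 sum over the TET sum (7.96 and 7.69 against 13.0 and 13.3) separate the groups most widely, while UHRF1 over DNMT1 and TET1 over TET2 overlap.

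The cell state differed strongly between the same samples. All 11 primitive streak and mesoderm markers tested were called lower with IWP2 (median log2 difference -3.42), and their summed level was 1201 to 1517 FPKM with DMSO and 156.2 to 178.7 FPKM with IWP2. APLNR, a receptor that marks early mesoderm, fell from 445.9 ± 93.6 to 2.68 ± 0.412 FPKM (SD, n = 2 each), and MESP1, a factor of nascent mesoderm, from 61.1 ± 19.1 to 0.165 ± 0.111 FPKM. MSGN1 was not tested and was listed at 0 in both IWP2 samples. Of the definitive endoderm markers 4 of 5 tested were called lower (8.45% of all genes tested), with a median of -2.18. The summed level of the list was 1794 to 2190 FPKM with DMSO and 119.0 to 130.3 FPKM with IWP2. CER1, a secreted inhibitor of Nodal and BMP signals, measured 1612 and 2048 FPKM with DMSO, most of the summed level there, and 38.6 and 34.2 FPKM with IWP2. GSC, a homeobox factor, fell from 25.1 ± 8.96 to 0.243 ± 0.177 FPKM. SOX17, the endoderm marker tested but not called (adjusted p = 0.151, limma), measured 154.7 and 104.2 FPKM with DMSO. With IWP2 it measured 79.7 and 94.9 FPKM, most of the summed endoderm level there.

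Of 11 primed pluripotency markers 6 were called higher with IWP2 (6.77% of all genes tested) and 2 lower (8.45%). The median was 0.97. The summed level of the list was 1135 to 1334 FPKM with DMSO and 2606 FPKM in both IWP2 samples. POU5F1 was the largest part of it, at 750.7 and 571.4 FPKM with DMSO and 1854 and 1844 FPKM with IWP2. SOX2, a core pluripotency factor, rose from 0.183 ± 0.0139 to 35.9 ± 0.334 FPKM, and CDH1, the epithelial cadherin, from 31.1 ± 2.04 to 122.3 ± 2.64 FPKM. TDGF1 and DPPA2 were the markers called lower, TDGF1 from 212.0 ± 13.0 to 101.0 ± 3.43 FPKM. None of these markers was at 0 in every sample. DNMT3B was higher in the samples where this list was higher, and the part of the cell state in the DNMT3B difference was not tested. In bulk samples fewer cells with a transcript and less of it per cell cannot be told apart.

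Amnion and trophoblast markers were called higher in 3 of 9 tested (6.77% of all genes tested) and lower in 0 (8.45%). The median was 0.27. KRT7 stood at 0.849 ± 0.0216 FPKM with DMSO and 7.03 ± 1.68 FPKM with IWP2. TFAP2A stood at 16.5 and 12.0 FPKM with DMSO and 34.1 and 34.2 FPKM with IWP2. Both IWP2 samples lay above both DMSO samples in 5 of the 9 (27.9% of all genes) and below in 2 (31.9%). GATA2 and GATA3 were these 2, GATA2 at 14.9 and 22.6 FPKM with DMSO and 11.3 and 9.74 FPKM with IWP2. The summed level of the list was 453.5 to 541.9 FPKM with DMSO and 597.4 to 638.5 FPKM with IWP2. Most of it was KRT18, which was not called, at 423.2 and 344.9 FPKM with DMSO and 443.9 and 480.1 FPKM with IWP2. Of the naive pluripotency markers, a state known for DNMT3L expression and low methylation, 6 of 9 were under the limit and 1 (KLF5) of 3 tested was called lower. KLF17 and ARGFX, which mark that state, were listed at 0 in all 4 samples, and DNMT3L itself is on that list. Of the endothelial and blood markers 8 of 10 were under the limit and both tested, KDR and RUNX1, were called lower. Among the neuroectoderm markers NES was called higher and OTX2 lower of 3 tested.

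The S-phase genes stand beside DNMT1 and UHRF1, which are made mainly in dividing cells. Of 18 tested, 1 was called higher (6.77% of all genes tested) and none lower (8.45%), with a median log2 difference of 0.07. It was MCM3, a subunit of the replicative helicase, at 78.5 ± 0.352 FPKM with DMSO and 103.5 ± 3.45 FPKM with IWP2. The summed level of the list was 966.5 to 983.1 FPKM against 1026 to 1032 FPKM.

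Of the 16 partners tested that recruit or guard the methyltransferases, 1 was called higher (6.77% of all genes tested) and none lower (8.45%). The median was 0.02. KDM2B, which binds unmethylated CpG islands, rose 1.48-fold from 27.1 ± 1.19 to 40.0 ± 1.75 FPKM (adjusted p = 0.0181, limma). HELLS, the remodeler that helps DNMT3B reach compact chromatin, measured 43.4 and 48.1 FPKM with DMSO and 55.8 and 62.7 FPKM with IWP2, without passing the test (adjusted p = 0.0784, limma). DPPA3, a maternal factor that opposes UHRF1, was under the limit at 0.743 and 0.910 FPKM with DMSO and 0.0964 and 0.0565 FPKM with IWP2.

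Of the methyl-CpG binding proteins 2 of 6 tested were called lower (8.45% of all genes tested) and none higher (6.77%). The median was -0.22. ZBTB38 measured 7.55 ± 0.440 and 4.41 ± 0.115 FPKM and ZBTB33 8.44 ± 0.135 and 5.46 ± 0.0826 FPKM in the DMSO and IWP2 groups; both are zinc finger proteins that bind methylated DNA.

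Downstream of the TET enzymes, TDG, the glycosylase that cuts out oxidised methylcytosine, fell from 40.6 ± 2.15 to 29.3 ± 0.0229 FPKM (0.721-fold, adjusted p = 0.0272, limma). UNG, the uracil glycosylase, rose from 50.7 ± 4.05 to 72.6 ± 4.71 FPKM. The stress genes GADD45A and GADD45B moved in opposite directions, GADD45A from 80.6 ± 19.6 to 24.5 ± 0.0431 FPKM and GADD45B from 17.8 ± 0.190 to 58.0 ± 4.07 FPKM. The other 10 of the 14 genes of this list were not called, and the median was 0.06. Of all genes tested, 15.2% were called in either direction.

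Of 10 TET partners and genes that supply 2-oxoglutarate, the cosubstrate of TET enzymes, 1 was called higher and 2 lower (median -0.12). Of all genes tested, 6.77% were called higher and 8.45% lower. IDH2 fell from 39.4 ± 1.56 to 22.6 ± 0.170 FPKM (adjusted p = 0.00596, limma) and IDH1 from 223.1 ± 3.27 to 161.2 ± 4.48 FPKM (adjusted p = 0.0171, limma), both enzymes that make 2-oxoglutarate from isocitrate. CXXC5, a zinc finger protein related to the DNA-binding part of TET enzymes, rose from 52.9 ± 5.58 to 76.2 ± 5.43 FPKM. OGT, a binding partner of TET proteins, measured 32.2 and 34.3 FPKM with DMSO and 40.0 and 32.6 FPKM with IWP2, which overlap.

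The methionine cycle supplies the methyl donor of all DNA methyltransferases. Of the 13 genes tested in this list, which include enzymes of folate metabolism, 1 was called higher and 1 lower. The median was -0.01, and 6.77% of all genes tested were called higher and 8.45% lower. MTHFD1 rose from 68.1 ± 4.94 to 90.8 ± 5.17 FPKM and SHMT2 fell from 167.5 ± 17.2 to 121.5 ± 6.43 FPKM, both enzymes of folate metabolism. MAT2A, which makes the methyl donor in these cells, measured 131.1 and 151.2 FPKM with DMSO and 153.1 and 151.1 FPKM with IWP2 and was not called.

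Germline genes whose promoters are silenced by DNA methylation in somatic cells were not detected at a testable level in either group. All 16 were under the limit, as were most symbols, since 14010 of 56595 passed it. The summed level of the 16 was 0.449 to 1.19 FPKM per sample, and 4 of them were listed at 0 in all 4 samples.

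**Figure D4:**
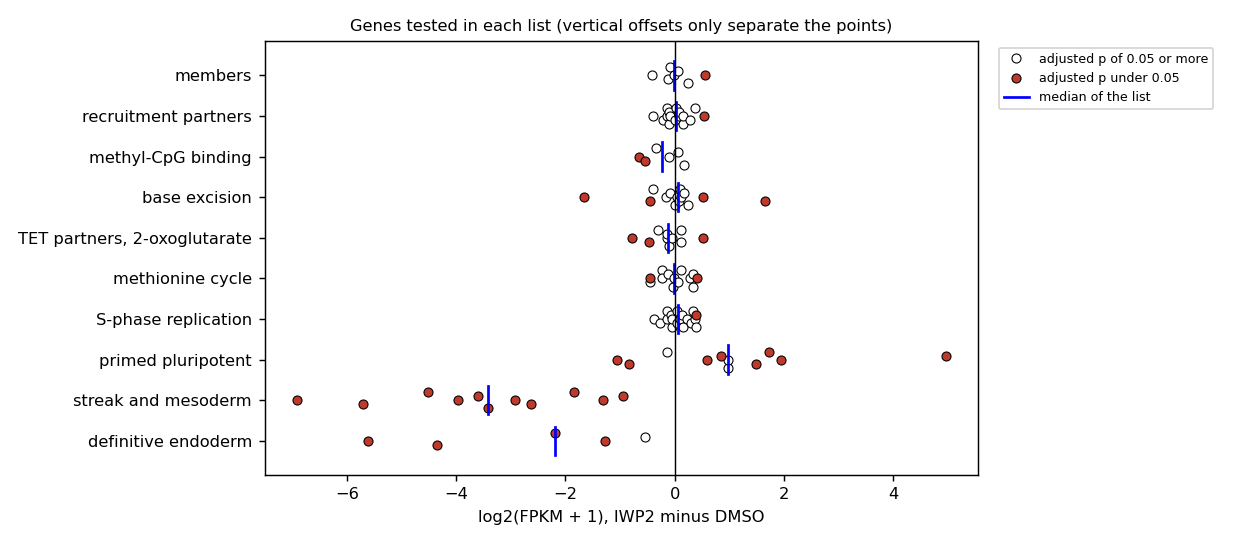
Difference of log2(FPKM + 1), IWP2 minus DMSO (horizontal axis), for the genes tested in 10 lists (rows), where filled dots have an adjusted p under 0.05 in limma and the blue line is the median of a list. The methylation lists have medians from -0.22 to 0.06 with single members called on both sides, from GADD45A at -1.66 to GADD45B at 1.65, whereas all 11 streak and mesoderm markers are filled and lie below 0.

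The 5 genes whose profile over the 4 samples was closest to that of DNMT3B, the member with both the highest level and the largest difference, were MBOAT1, TMPRSS11E, MAP3K21, ME2 and CLUH. Closeness was the Euclidean distance between log2(FPKM + 1) values centered on their mean, which ran from 0.0144 to 0.0407. CLUH measured 22.3 and 24.4 FPKM with DMSO and 36.0 and 35.4 FPKM with IWP2, a lower level than DNMT3B. Its log2 difference was 0.59, against 0.56 for DNMT3B. MBOAT1, the closest, measured 1.901 and 2.145 FPKM with DMSO and 3.504 and 3.386 FPKM with IWP2. At such low levels the added 1 shrinks log2 differences. With 4 samples in 2 groups such a likeness is only a description.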

How the data were processed

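RNA of H1 cells (2 DMSO and 2 IWP2 samples) was sequenced with the Illumina TruSeq RNA kit. The authors deposited FPKM values of 58365 gene rows. The labels list RSEM, Bowtie and BWA as tools and hg19 as the build, without roles or versions, whereas the row coordinates are those of GRCh38: 97.4% of the gene IDs shared with GENCODE 29 had the same position. The header names no unit, and strand handling and depth are not given in the sources used here, so no counting interval could be given.

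The columns marked with a minus sign before IWP2 were taken as DMSO. For repeated symbols the row with the highest mean was kept. Values were analysed as log2(FPKM + 1) for genes with a mean of at least 1 FPKM, with limma 3.58.1 (R 4.3.3, trended eBayes, no covariate) and Benjamini-Hochberg adjustment over 14010 genes, called at an adjusted p under 0.05. The fit was checked on simulated data. All 8 members are named, and 1 gene of the methyl-CpG binding list is not reported here. Of each other list the named genes were the 2 highest and 2 lowest called. A few others were chosen after their values were seen (HELLS, DPPA3, OGT, MAT2A, MSGN1, KLF17, ARGFX, POU5F1, SOX17, GATA2, GATA3 and KRT18). The members and lists were chosen with earlier results of these data known. Alternatives were other pseudocounts, filters and scalings, eBayes without the trend, a replicate block and leaving out each sample. Proteins were translated from GENCODE coding sequences and aligned with Biopython 1.88.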

Additional observations from a re-analysis of the deposited data

How the results depend on the processing

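DNMT3B was higher with IWP2 under all 12 alternatives, with log2 differences from 0.49 to 0.63 and adjusted p-values from 0.0130 to 0.128, and it was called in 8 of them. The signs of DNMT3A, TET1, TET2 and TET3 did not change and none was called under any alternative that tested it, with adjusted p-values of 0.0944 to 0.415 for TET3 and 0.143 to 0.437 for DNMT3A. DNMT1 turned to -0.0360 and -0.0655 without DMSO replicate 1 and without IWP2 replicate 1 and reached 0.19 without IWP2 replicate 2. UHRF1 turned to 0.11 and 0.05 without DMSO replicate 2 and without IWP2 replicate 2 and reached -0.15 without DMSO replicate 1. The scalings moved the median of all genes to -0.00491 and -0.0435.

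Leaving out each sample in turn brought the 949 genes called higher to 62 to 662 and the 1184 called lower to 181 to 722, where fewer samples were fitted. With all genes of low level kept, 118 were called higher and 266 lower. The replicate block gave 863 and 1068 calls and an adjusted p of 0.0240 for DNMT3B. Same-numbered samples share no stated source. Across 14010 genes, the difference of replicate 1 minus replicate 2 in DMSO correlated at 0.148 with that in IWP2. The planned count tests need read counts and were not run here. TET2 had no value at a mean of at least 5 FPKM.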
